A study of Mus musculus with 2 samples.

Results

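The genes Apoe, Apoc1, Abca1, Abcg1, Lpl and Plin2, which serve cholesterol efflux and lipid handling, were followed in single cells from mice with 4T1 liver metastases. They are 6 of the 32285 genes counted and were selected by symbol. They were chosen from measured values of these data that were already known, so their levels and ratios are given as a description, with no test.

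Phagocytes cannot break down the sterol ring, so the cholesterol they take in has to be stored or sent out. The transporters encoded by Abca1 and Abcg1 move cholesterol across the plasma membrane to apolipoproteins and to high-density lipoprotein, and Apoe encodes a secreted apolipoprotein that macrophages themselves make and that accepts this cholesterol. Liver X receptors, which sense oxysterols and pair with retinoid X receptors, raise transcription of these genes and of Apoc1 and Lpl in macrophages. Apoc1 encodes a small apolipoprotein whose gene neighbours Apoe, Lpl encodes the lipase that frees fatty acids from circulating triglyceride, and Plin2 encodes the protein that coats lipid droplets.

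The animals were female BALB/c mice, BALB/cAnNCrl in the labels and 7 to 8 weeks old per the methods. 4T1 cells, a mammary carcinoma line of the same strain, had been placed in the liver through the spleen, part of which was then removed, so all groups carried tumor and only a remnant of the spleen. Vehicle or CBL0137, a curaxin that binds DNA and traps the histone chaperone FACT on chromatin, was infused into the hepatic artery, and cells were collected 5 days later, with 2 mice pooled for each group. Hashtag antibodies marked the groups: A0301 the vehicle, A0305 a low dose and A0310 a high dose of CBL0137. The sources used tie no stated dose to the low or the high dose group. The labels call the cells leukocytes, whereas the methods describe selection of CD11b+ cells with magnetic beads. The labels give 1 library as liver and 1 as spleen, and each group is 1 pooled sample in each library. No p-value was therefore computed, and every interval below is a 95% interval that covers counting error only, not the difference between mice.

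The liver-labelled library held 9591 barcodes and 79585807 UMIs, with 3103 vehicle, 3194 low dose and 2138 high dose cells after hashtag calling. The spleen-labelled library held 4830 barcodes and 35672251 UMIs, with 822, 1301 and 865 such cells, and 1627 of its barcodes carried no hashtag call. The tissue markers went against these labels. Kupffer cell genes summed to 10.6 UMIs per 1000000 (CPM) in the liver-labelled library and 508 CPM in the spleen-labelled library, 4T1 keratin and junction genes to 5.68 and 366 CPM, and hepatocyte genes to 110 and 347 CPM. In neutrophil-like, monocyte-like and macrophage-like cells of the liver-labelled library the hepatocyte UMIs were of Trf and Ambp, with the other 9 genes of the list, Alb among them, at 0. The deposited files also carry the other tissue in their names. Tissue and library cannot be separated here, so each library is called by its label. They shared 15 barcodes, 0.156% and 0.311% of each, of which 3 and 2 were in neutrophil-like cells and 0 in monocyte-like or macrophage-like cells.

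The genes lie on 4 chromosomes of the mm10 build, and Apoe and Apoc1 are neighbours. By the GENCODE annotation (M21), Apoe (ENSMUSG00000002985) spans chr7:19696109-19699188 and Apoc1 (ENSMUSG00000040564) chr7:19689481-19692660, both on the minus strand with 3448 bases between them. Abca1 (ENSMUSG00000015243) lies at chr4:53030787-53159895 and Plin2 (ENSMUSG00000028494) at chr4:86648386-86670060, both on the minus strand. Abcg1 (ENSMUSG00000024030) lies at chr17:31057675-31117988 and Lpl (ENSMUSG00000015568) at chr8:68880491-68907448, both on the plus strand.

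The Abca1 promoter is shown because most of the members are liver X receptor targets in macrophages. The 250 bases upstream of its start, chr4:53159896-53160145 on the minus strand (RefSeq, GRCm38.p6), read as follows, with the letters that match GGTTANNNNNGGTCA on the other strand in capitals.
Abca1 promoter: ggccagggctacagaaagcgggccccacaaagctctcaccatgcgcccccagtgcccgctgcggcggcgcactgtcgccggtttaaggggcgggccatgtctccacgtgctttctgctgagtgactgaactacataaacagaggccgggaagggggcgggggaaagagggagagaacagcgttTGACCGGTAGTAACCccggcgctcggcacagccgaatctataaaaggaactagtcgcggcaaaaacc
Read on the other strand the capitals are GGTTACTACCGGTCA, at chr4:53159948-53159962, 52 bases upstream of the start. These letters, a direct repeat of nuclear receptor half-sites with any bases between, were written after the liver X receptor element of the Abca1 promoter. The match in Abca1 was therefore fixed in advance and is not a finding. Searched on both strands, the letters were held by 15 of 32851 promoter windows (0.0457%), and by none of those of Apoe or Plin2. The stricter form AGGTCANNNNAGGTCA was held by 5 windows (0.0152%), and by none of those of Abca1, Apoe or Plin2. A match of letters is not a binding measurement. No window was used for Apoc1, Abcg1 or Lpl.

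Apoe RNA was concentrated in mononuclear phagocytes, and which of them held most of it differed between the libraries. In the liver-labelled library, 53.3% of its 23645 UMIs were in monocyte-like cells, which were 3.32% of cells, 18.7% in B cell-like cells and 12.7% in macrophage-like cells. Of the 77987 UMIs of the spleen-labelled library, 77.6% were in macrophage-like cells, which were 9.97% of cells. Neutrophil-like cells, the most numerous myeloid class at 34.6% of cells in the liver-labelled library, held 8.58% of Apoe UMIs there. Classes were named from marker genes among which no lipid gene was used.

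Apoe levels over all groups were highest in macrophage-like cells of both libraries. Macrophage-like cells stood at 5192 CPM in the liver-labelled library and 13186 CPM in the spleen-labelled library, and monocyte-like cells at 2170 and 2854 CPM. B cell-like cells followed at 795 CPM in the liver-labelled library, whereas their 731 CPM in the spleen-labelled library lay below hepatocyte-like (1056 CPM) and T cell-like cells. Neutrophil-like cells were lower in both, at 74.8 and 260 CPM. T cell-like cells, which should make little Apoe, gave 20.1 CPM in the liver-labelled library but 1000 CPM in the spleen-labelled library, where endothelial cell-like cells stood at 3399 CPM, above the monocyte-like cells. The T cell value of the spleen-labelled library rested on few cells, since the top 5 held 88.7%, 95.8% and 84.0% of the class's Apoe UMIs in the vehicle, low dose and high dose groups.

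Apoc1 and Lpl were rare in the liver-labelled library, with 217 and 135 UMIs in all. Monocyte-like cells held 61.8% of Apoc1 UMIs and 48.9% of Lpl UMIs there, and macrophage-like cells 13.4% and 37.8%. Neutrophil-like cells held 19.4% of Apoc1 UMIs. The levels had another order, with macrophage-like cells highest at 50.2 CPM for Apoc1 and 88.3 CPM for Lpl. Monocyte-like cells stood at 23.1 and 11.4 CPM. In the spleen-labelled library Apoc1 had 1738 UMIs, 57.4% of them in macrophage-like, 13.98% in neutrophil-like and 10.3% in hepatocyte-like cells, and Lpl had 992 UMIs, 76.3% of them in macrophage-like cells. By level, Apoc1 was highest there in hepatocyte-like cells (353 CPM), with macrophage-like cells at 217 CPM and neutrophil-like cells at 26.4 CPM. B cell-like cells held 0 Lpl UMIs in the spleen-labelled library. Clusters without a class name held 15.0% of its Lpl UMIs, at 149 CPM (126 to 175). That interval overlapped the one of macrophage-like cells, at 165 CPM (153 to 177).

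The transporters and Plin2 were spread more widely. Abca1 stood at 81.4 and 152 CPM in macrophage-like, 73.4 and 61.1 CPM in B cell-like, 20.0 and 13.8 CPM in neutrophil-like and 5.34 and 11.7 CPM in monocyte-like cells of the libraries labelled liver and spleen. The intervals of the macrophage-like (59.8 to 108) and B cell-like cells (66.5 to 80.9) overlapped in the liver-labelled library. Abcg1 stood at 147 and 128 CPM in macrophage-like, 28.1 and 49.1 CPM in monocyte-like and 21.4 and 10.4 CPM in neutrophil-like cells. Monocyte-like cells thus had Abcg1 above neutrophil-like cells in both libraries, while for Abca1 they were below them in the liver-labelled library and overlapped them in the spleen-labelled one (7.65 to 17.2 against 11.5 to 16.4 CPM). Plin2 was highest in myeloid classes, at 170 and 427 CPM in macrophage-like, 346 and 391 CPM in monocyte-like and 193 and 186 CPM in neutrophil-like cells, against 12.6 and 11.1 CPM in B cell-like cells. In the spleen-labelled library it was also held by endothelial cell-like (146 CPM), hepatocyte-like (98.7 CPM) and 4T1 tumor cell-like cells (96.3 CPM). Endothelial cell-like cells of that library also held Abca1 at 143 CPM (119 to 170) and Abcg1 at 120 CPM (98.2 to 145). Both intervals overlapped those of its macrophage-like cells (141 to 164 and 118 to 139 CPM).

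**Figure D1:**
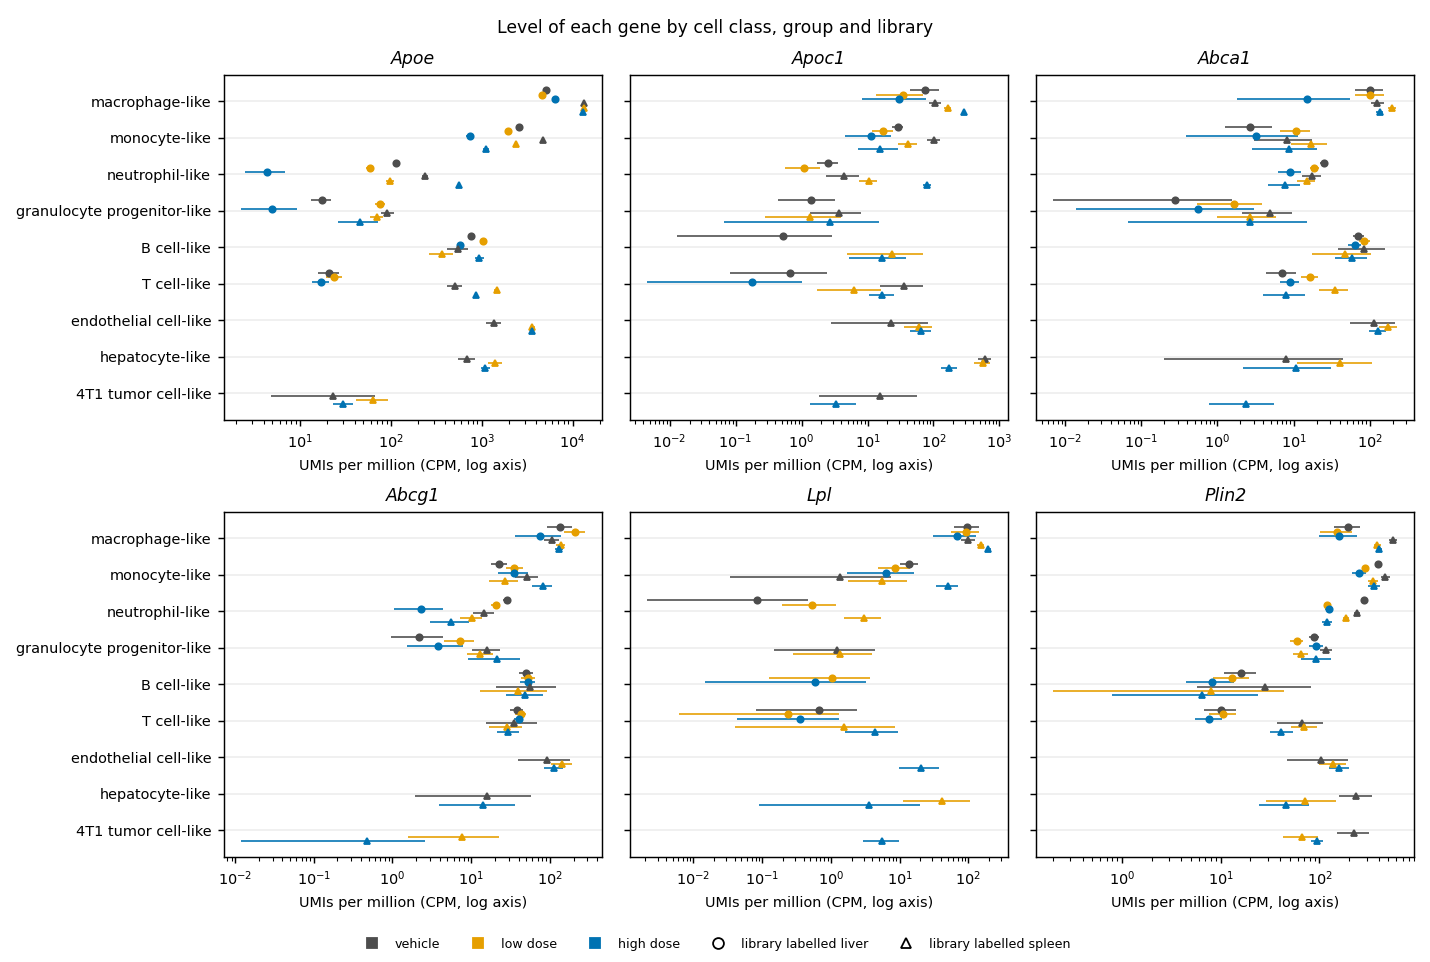
Levels of the 6 genes (1 panel each) in CPM, UMIs per 1000000, on a log axis, by cell class with at least 10 cells of a group; circles are the liver-labelled library, triangles the spleen-labelled library, colours the hashtag groups and bars 95% Poisson intervals, with values of 0 not drawn. Apoe is highest in macrophage-like cells (5192 and 13186 CPM over all groups), and its neutrophil-like values by group spread from 4.30 to 563 CPM.

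In vehicle cells, the same class differed between the libraries for several members. Apoe was higher in the spleen-labelled library by 1.42 on the log2 scale in macrophage-like, 0.90 in monocyte-like and 1.06 in neutrophil-like cells. In T cell-like cells the same difference was 4.61, so Apoe was also higher in a class that is not a known source of it. Of the 115 Apoe UMIs of these 44 vehicle cells in the spleen-labelled library, however, 1 cell held 92. The neutrophil-like difference also rested on few cells, as the top 5 of 360 in the spleen-labelled library held 462 of 696 Apoe UMIs. Vehicle neutrophil-like cells without a UMI of the macrophage genes C1qa, C1qb or C1qc had 111 CPM in the liver-labelled and 112 CPM in the spleen-labelled library. Plin2 was higher there by 1.54 in macrophage-like cells and Apoc1 by 1.83 in monocyte-like cells.

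Monocyte-like cells had less Apoe at the high dose in both libraries, and over all cells of the class the low dose lay between. These cells carry Ly6c2, Ccr2 and Vcan, markers of monocytes that arrive from the blood, and F13a1, Ms4a4c and Treml4 were also raised in both libraries. Cx3cr1 was raised in the liver-labelled library only. The class was not split into kinds of monocyte. In the liver-labelled library, 157 vehicle, 97 low dose and 26 high dose cells held 8498, 3636 and 466 Apoe UMIs, or 2558, 1957 and 745 CPM. The 70, 76 and 39 cells of the spleen-labelled library held 3528, 2149 and 656 UMIs, or 4771, 2389 and 1130 CPM. The 3 groups did not overlap in their counting intervals in either library. The log2 ratio of high dose to vehicle was −1.78 (−1.92 to −1.65) and −2.08 (−2.20 to −1.96), and that of low dose to vehicle −0.39 (−0.44 to −0.33) and −0.998 (−1.08 to −0.92).

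Fewer high dose cells held much Apoe, while the share with any UMI, before thinning, did not go in this order. Cells with at least 20 Apoe UMIs were 82 of 157 (52.2%, 44.1 to 60.3), 42 of 97 (43.3%, 33.3 to 53.8) and 5 of 26 (19.2%, 6.55 to 39.4) in the vehicle, low dose and high dose groups of the liver-labelled library. They were 37 of 70 (52.9%, 40.5 to 64.9), 36 of 76 (47.4%, 35.8 to 59.2) and 10 of 39 (25.6%, 13.04 to 42.1) in the spleen-labelled library. The median cell held 23, 13 and 2 Apoe UMIs in the first library and 24.5, 18.5 and 3 in the second. High dose cells were the deepest, with medians of 23969.5 and 14516 UMIs of all genes against 15667 and 10338 in the vehicle. Depth and Apoe did not rise together, since most of the deepest vehicle cells of the liver-labelled library held 0 Apoe UMIs. As the high dose cells there were deeper, a different makeup of the class and a lower Apoe level cannot be told apart, and this was not tested. Cells with any Apoe UMI were 69.4%, 77.3% and 73.1% in the liver-labelled library, and 53.5%, 41.2% and 23.1% after each cell was thinned to 500 UMIs. In the spleen-labelled library they were 82.9%, 84.2% and 82.1%, and 62.9%, 50% and 30.8% after thinning.

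Few high dose monocyte-like cells carried most of the remaining Apoe. The top 5 of 26 cells held 85.2% of the group's Apoe UMIs in the liver-labelled library, and the top 5 of 39 held 55.2% in the spleen-labelled library. In the vehicle the top 5 of 157 and of 70 cells held 18.7% and 39.3%. Because 5 cells are a larger part of a smaller group, these shares cannot be compared between the groups. Cells with a UMI of the complement genes C1qa, C1qb or C1qc, which mark macrophages, were 5.10%, 10.3% and 23.1% of monocyte-like cells in the vehicle, low dose and high dose groups of the liver-labelled library and 18.6%, 21.1% and 33.3% in the spleen-labelled library. Without them Apoe stood at 2242, 1679 and 429 CPM and at 4480, 2413 and 1125 CPM, in the same order. The whole macrophage list summed to 382, 623 and 366 CPM and to 675, 898 and 719 CPM, an order other than that of Apoe. When cells with any UMI of the hepatocyte list were left out, the high dose ratio in the spleen-labelled library was −0.27, and in the liver-labelled library −1.998. This cut left only 34, 23 and 7 cells of the vehicle, low dose and high dose groups in the liver-labelled library and 14, 15 and 8 in the spleen-labelled library. Apoe was then 434, 502 and 109 CPM in the liver-labelled and 1393, 1952 and 1157 CPM in the spleen-labelled library, with the low dose above the vehicle in both. That list includes Trf and Ambp, which stood at 226 and 2.58 CPM in monocyte-like cells of the liver-labelled library while the other 9 hepatocyte genes were at 0, and without these 2 genes in the list the ratio in the spleen-labelled library was −2.25.

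**Figure D2:**
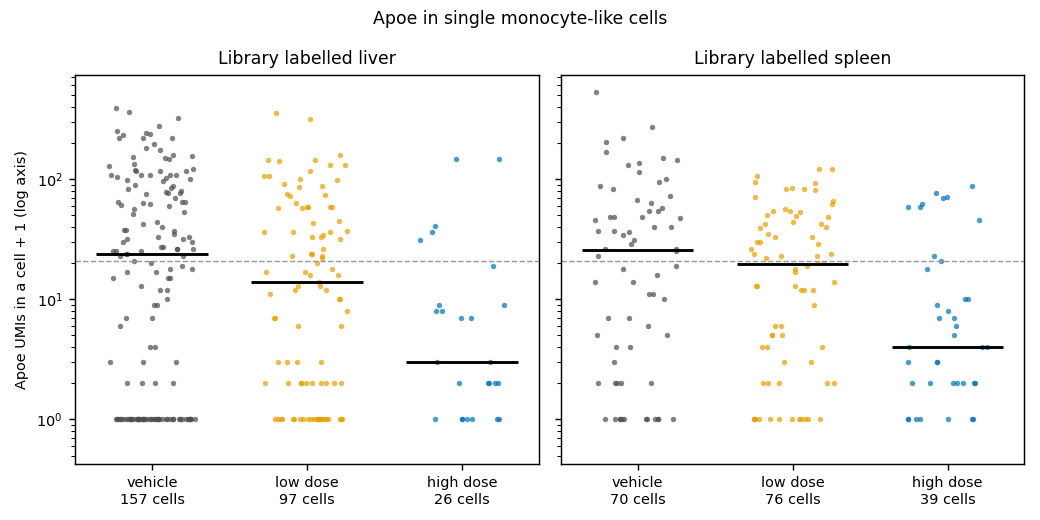
Apoe UMIs plus 1 in each monocyte-like cell (log axis) by hashtag group and library; black lines are medians and the dashed line marks 20 UMIs. The medians go from 23 to 13 and 2 in the liver-labelled library and from 24.5 to 18.5 and 3 in the spleen-labelled library, and the highest high dose cell of the liver-labelled library holds 147.

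Apoc1 was lower beside Apoe in monocyte-like cells. It had 95, 32 and 7 UMIs in the vehicle, low dose and high dose groups of the liver-labelled library, or 28.6, 17.2 and 11.2 CPM, and 75, 37 and 9 UMIs in the spleen-labelled library, or 101, 41.1 and 15.5 CPM. The high dose ratios were −1.35 (−2.71 to −0.26) and −2.71 (−3.89 to −1.71), and the first was 0.49 without cells that held hepatocyte list UMIs. That cut left 34 vehicle and 7 high dose cells. Plin2 was lower by less, at 394, 292 and 254 CPM (high dose ratio −0.63) and 467, 348 and 360 CPM (−0.37).

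The transporters did not follow Apoe in these cells. Abcg1 stood at 22.6, 35.5 and 35.1 CPM in the liver-labelled library and 51.4, 26.7 and 81.0 CPM in the spleen-labelled library, with high dose ratios of 0.64 (−0.12 to 1.34) and 0.66 (0.01 to 1.31). The first of these intervals included 0. Abca1 had 9, 20 and 2 UMIs and 6, 15 and 5 UMIs, and its low dose stood above the vehicle in the liver-labelled library (10.8 against 2.71 CPM, a ratio of 1.99, 0.79 to 3.31). Lpl had 46, 16 and 4 UMIs in the liver-labelled library, 25 of the 46 in 1 cell, and 1, 5 and 29 UMIs in the spleen-labelled library, where 8 of 39 high dose cells held them with at most 11 in a cell.

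Among all genes measured in monocyte-like cells, 8.06% were at least 2-fold lower and 5.42% at least 2-fold higher at the high dose in the liver-labelled library. For the spleen-labelled library, 4.66% were lower and 7.22% higher. The members past 2-fold were 3 lower and 0 higher of 6 in the first (Apoe, Apoc1 and Lpl), and 2 lower (Apoe and Apoc1) and 1 higher (Lpl) of 6 in the second. The genes were chosen with these ratios known, so nothing is read from the counts.

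Neutrophil-like cells of the liver-labelled library had lower CPM of every measured member at the high dose. The class had 1431 vehicle, 1293 low dose and 198 high dose cells with medians of 4368, 5741 and 18598 UMIs. Apoe had 1358, 653 and 17 UMIs, or 113, 58.5 and 4.30 CPM, with a high dose ratio of −4.72 (−5.50 to −4.03). Abcg1 had 342, 228 and 9 UMIs, or 28.5, 20.4 and 2.28 CPM, with a ratio of −3.65 (−4.79 to −2.71). The high dose group was the lowest for both genes, and its interval lay below those of the other groups.

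Abca1 and Plin2 were lower by less. Abca1 had 297, 209 and 35 UMIs, or 24.8, 18.7 and 8.86 CPM, with a ratio of −1.48 (−2.03 to −0.98). Plin2 had 3420, 1318 and 490 UMIs, or 285, 118 and 124 CPM, with a ratio of −1.20 (−1.34 to −1.07), and at the low dose of −1.27. For Plin2 both doses were thus below the vehicle in CPM by a like amount, whereas Apoe, Abcg1 and Abca1 had low dose ratios of −0.95, −0.48 and −0.40. Per cell, Plin2 UMIs were not fewer at the high dose, where cells were deeper, than in the vehicle. Apoc1 had 30, 12 and 0 UMIs, and the count of 0 allows up to 0.759 CPM. Lpl was near 0 throughout, with 1, 6 and 0 UMIs. The median over all genes was −0.40, and 19.3% of genes were at least 2-fold lower and 1.80% at least 2-fold higher, beside 5 lower and 0 higher of the 5 members measured.

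An Apoe UMI was found in 17.7%, 9.82% and 6.06% of neutrophil-like cells of that library, and in 6.43%, 3.09% and 0% after thinning to 500 UMIs. In T cell-like cells, with medians of 4795, 4680 and 5043 UMIs, the shares were 5.58%, 4.65% and 5.68%, and 0.338%, 0.581% and 0.881% after thinning. The high dose neutrophil-like share after thinning, 0 of 198 cells, was at or below this background.

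The CPM of these genes depended on which neutrophil-like cluster a cell belonged to. The clusters with the highest CPM were the ones with few high dose cells. In the vehicle group Apoe stood at 344 and 164 CPM in clusters 2 and 3, whose leading genes include Il1b, the gene of a pro-inflammatory cytokine, and at 39.1, 34.6 and 3.29 CPM in clusters 6, 7 and 10. The value of cluster 6 rests largely on 1 cell, which held 69 of the 81 UMIs. Abcg1 stood at 76.3 and 68.1 CPM against 5.79, 7.56 and 4.11 CPM, and Abca1 at 71.6 and 55.7 CPM against 11.1, 1.05 and 7.39 CPM. Plin2 stood at 540 and 560 CPM against 222, 115 and 209 CPM. Clusters 2 and 3 together held 1003 vehicle and 12 high dose cells. They were also shallower, with medians of 3305.5 and 3523 UMIs over all groups against 13086.5, 22890 and 11839 in clusters 6, 7 and 10. Their 1003 vehicle cells held 2154 Plin2 UMIs, and the 428 of clusters 6, 7 and 10 held 1266. Per cell the order of Plin2 was thus the other way. Cluster 7, led by Ltf, Camp and Ngp, carries the secondary granule genes of immature neutrophils, and cluster 10 is led by Retnlg and Prok2.

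Outside these clusters the differences were smaller, and that of Abca1 went the other way over the pooled clusters, with an interval that included 0. Over clusters 6, 7 and 10, with 428 vehicle and 186 high dose cells, Apoe was 31.0 and 4.40 CPM (−2.82, −3.62 to −2.11), Abcg1 6.58 and 2.33 CPM (−1.50, −2.70 to −0.47), and Plin2 157 and 122 CPM (−0.37, −0.53 to −0.22). Abca1 was 4.60 and 7.51 CPM (0.71, −0.05 to 1.45). Taken singly, Abca1 was −0.12 in cluster 6, −0.70 in cluster 7 and 1.58 in cluster 10 (9 vehicle and 8 high dose UMIs), and Apoe was −3.45, −2.94 and 1.34, the last from 4 and 3 UMIs. For Apoe, 1 vehicle cell of cluster 6 held 69 of the 81 vehicle UMIs of that cluster and of the 250 of the pooled clusters, so the −3.45 rests largely on that cell. The 12 high dose cells of clusters 2 and 3 held 0 Apoe, 0 Abcg1 and 6 Abca1 UMIs, the last at 67.5 CPM against 66.1 CPM in the 1003 vehicle cells. At the low dose Plin2 stood at 210 and 163 CPM in clusters 2 and 3, below the vehicle values in the same clusters, whereas Abca1 stood at 74.5 and 41.9 CPM.

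**Figure D3:**
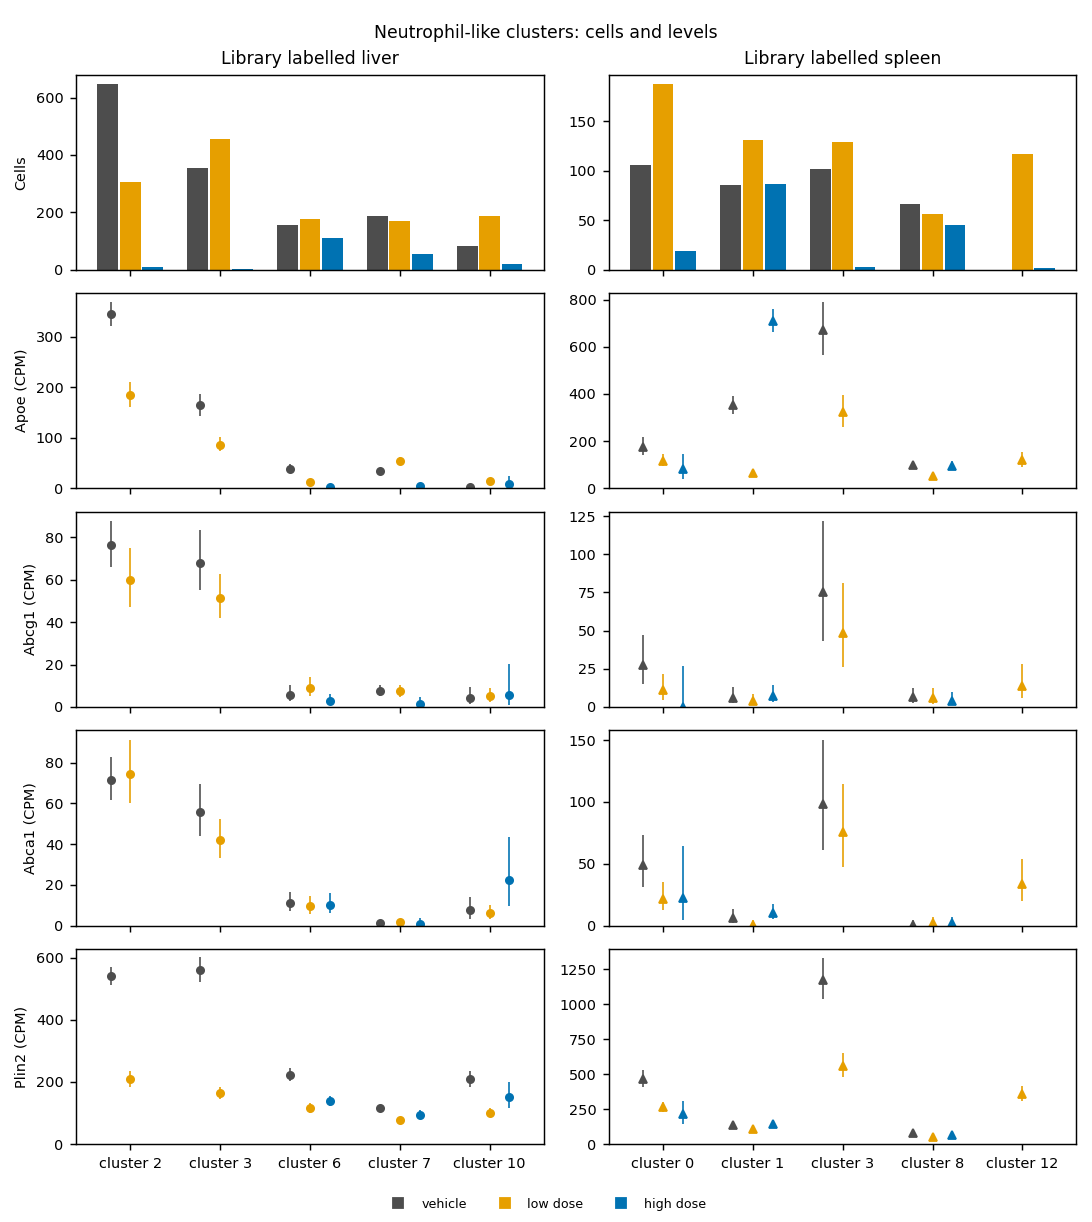
Neutrophil-like clusters of both libraries by hashtag group: number of cells (bars from 0) and levels of Apoe, Abcg1, Abca1 and Plin2 in CPM, with levels drawn for at least 10 cells. In the liver-labelled library, clusters 2 and 3 have the highest vehicle levels of all 4 genes among the 5 clusters and hold 9 and 3 high dose cells.

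In neutrophil-like cells of the spleen-labelled library, Abcg1, Abca1 and Plin2 were again lower in CPM at the high dose. Apoe and Apoc1 were higher, through a few cells. The class had 360, 621 and 156 cells with medians of 4904, 4276 and 14205.5 UMIs. Abcg1 had 43, 40 and 13 UMIs, or 14.6, 10.2 and 5.56 CPM (−1.39, −2.41 to −0.47). Abca1 had 51, 58 and 18 UMIs, or 17.3, 14.8 and 7.70 CPM (−1.17, −2.03 to −0.37), and Plin2 had 705, 734 and 279 UMIs, or 239, 187 and 119 CPM (−1.003, −1.21 to −0.80). In CPM the vehicle was highest and the high dose lowest for all 3. Counted as UMIs per cell, the low dose was lowest for all 3, as depth differed between the groups.

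Apoe had 696, 383 and 1317 UMIs in the vehicle, low dose and high dose groups, or 236, 97.4 and 563 CPM, with ratios of −1.28 at the low and 1.25 (1.12 to 1.39) at the high dose. The top 5 high dose cells held 1216 of the 1317 UMIs (92.3%) together with 445 C1q UMIs, and the highest held 647 and 393 Apoe UMIs. Without cells that held a C1q UMI, Apoe stood at 112, 83.1 and 39.0 CPM, and the high dose ratio was −1.53. The whole macrophage list summed to 184, 156 and 356 CPM and the hepatocyte list to 209, 235 and 330 CPM in this class. Apoe was thus higher at the high dose with these cells and lower without them.

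Apoc1 had 13, 41 and 189 UMIs, or 4.41, 10.4 and 80.9 CPM (4.20, 3.39 to 5.13), of which 153 of the 189 lay in 2 cells of cluster 12 and 134 in 1 cell. That cluster, named from the neutrophil markers S100a8, S100a9, Csf3r and others, held 0, 117 and 2 cells of the 3 groups. Its leading genes include the hepatocyte genes Orm1, Apoa2, Saa1 and Hamp, which go against its name, and the neutrophil markers Retnlg and Il1r2. Without this cluster the high dose ratio was 1.83 for Apoc1, 0.76 for Apoe, −1.48 for Abcg1, −1.23 for Abca1 and −1.02 for Plin2. Apoa2 and Apoc3, apolipoprotein genes of hepatocytes, were higher in the class by 4.55 and 3.73. Lpl had 0, 12 and 0 UMIs.

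Cluster 3 of the spleen-labelled library, led by Ccrl2, Il1b and Hilpda, had the high levels, with vehicle values of 1176 CPM for Plin2, 670 CPM for Apoe, 98.4 CPM for Abca1 and 74.99 CPM for Abcg1. It held 102 vehicle, 129 low dose and 3 high dose cells. Its median over all groups was 2021 UMIs, against 10613 and 19630 in clusters 1 and 8. For Apoe, 1 of its vehicle cells held 50 UMIs together with 31 C1q UMIs. Over clusters 1 and 8, which had at least 20 cells of both groups, the ratios were 0.97 (−0.47 to 2.53) for Abca1, −0.15 for Abcg1 and 0.00 (−0.27 to 0.27) for Plin2. Apoe was 0.99 there, at 1.01 in cluster 1 and −0.03 in cluster 8, and 1 high dose cell of cluster 1 held 647 of the 889 UMIs and 1 vehicle cell 298 of the 470. In this library 5.40% of genes were at least 2-fold lower and 5.26% at least 2-fold higher in the class, beside 3 lower and 2 higher of the 5 members measured.

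**Figure D4:**
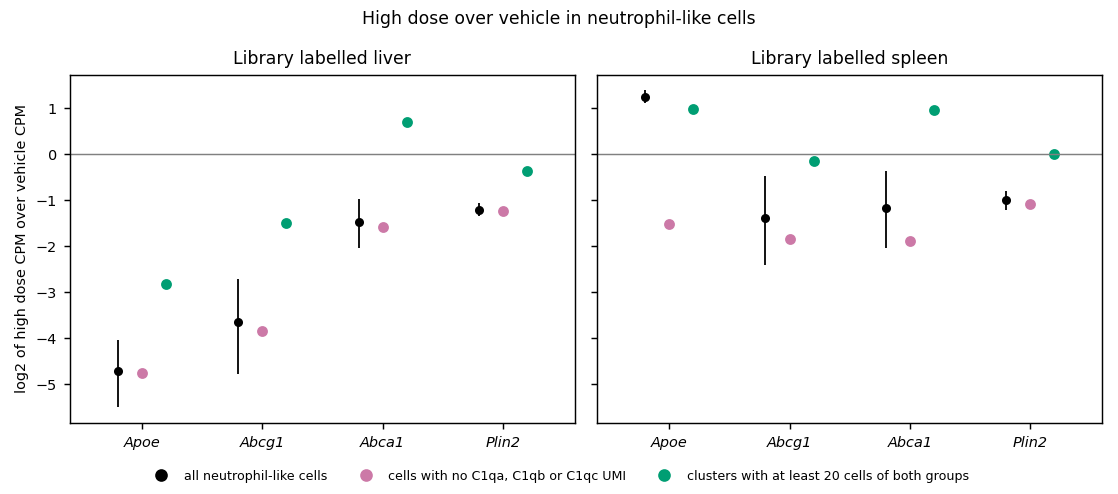
High dose over vehicle (log2 ratio of CPM) of Apoe, Abcg1, Abca1 and Plin2 in neutrophil-like cells of each library, for all cells with the 95% counting interval, for cells without C1q UMIs, and for clusters with at least 20 cells of both groups. Apoe of the spleen-labelled library goes from 1.25 to −1.53 without the C1q cells, and Abca1 goes from −1.48 to 0.71 and from −1.17 to 0.97 in the shared clusters.

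Macrophage-like cells of the spleen-labelled library had a near constant Apoe level over the groups. Over the whole class, Apoc1 and Lpl were higher and Plin2 lower in both dose groups than in the vehicle. The class had 63, 113 and 122 cells, but with other hashtag callers the high dose cells were 296 (MULTIseqDemux) and 349 (dominant hashtag), beside 64 and 85 vehicle cells. Apoe had 11068, 19751 and 29697 UMIs, or 13519, 13280 and 13004 CPM, with ratios of −0.03 at the low and −0.06 (−0.09 to −0.02) at the high dose, the latter of which changed sign under other hashtag calls and cluster resolutions. Apoc1 had 87, 244 and 666 UMIs, or 106, 164 and 292 CPM (low dose 0.63, high dose 1.46, 1.13 to 1.80). Lpl had 82, 225 and 450 UMIs, or 100, 151 and 197 CPM (0.60 and 0.98, 0.63 to 1.33). Both genes were ordered vehicle, low dose, high dose.

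Plin2 stood at 559, 387 and 405 CPM, with ratios of −0.53 at the low and −0.46 (−0.63 to −0.30) at the high dose, and both doses were below the vehicle. Abca1 stood at 126, 194 and 134 CPM, so the low dose was the highest (0.62, 0.29 to 0.96) and the high dose ratio of 0.10 was within counting error. Abcg1 stood at 106, 137 and 130 CPM, with a high dose ratio of 0.30 (−0.05 to 0.66).

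The Apoc1 and Lpl values moved with the makeup of the class. Its cells fell into cluster 16, led by Marco, Clec4f, Cd5l, Vsig4 and Cd163, genes of resident liver macrophages, and cluster 4, led by Arg1, Ccl8, Pf4 and Mmp12. Over all groups Apoc1 was 1028 CPM in cluster 16 against 26.4 CPM in cluster 4, Lpl 523 against 80.8 CPM, Abcg1 270 against 95.0 CPM and Abca1 208 against 139 CPM, while Plin2 was 265 against 465 CPM. Apoe was alike, at 13851 and 13029 CPM. Cluster 16 held 6, 25 and 39 cells of the vehicle, low dose and high dose groups and cluster 4 held 57, 88 and 83. The whole Kupffer cell list summed to 1179, 2714 and 3468 CPM in the class.

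Within cluster 4 the high dose ratio was 0.28 (−0.45 to 1.06) for Apoc1 and 0.33 (−0.10 to 0.77) for Lpl, intervals that include 0. Plin2 was −0.36 (−0.53 to −0.19) there. Cluster 16, with 6 vehicle cells, had lower Apoc1 (−0.55, −0.92 to −0.15), Apoe (−0.48, −0.59 to −0.38) and Abca1 (−1.13, −1.86 to −0.33) at the high dose. In the class, 3.16% of all genes were at least 2-fold lower and 8.08% at least 2-fold higher at the high dose, and 0 members were lower and 1 of 6 (Apoc1) higher.

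**Figure D5:**
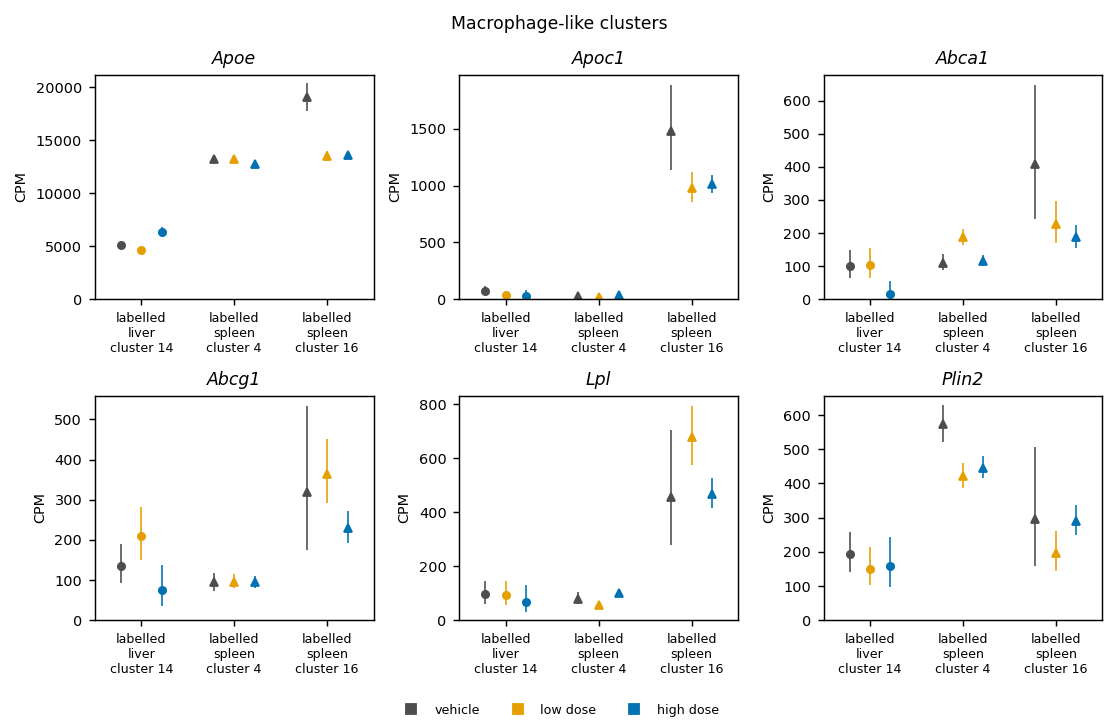
Levels of the 6 genes in CPM by hashtag group in the macrophage-like clusters, cluster 14 of the liver-labelled library and clusters 4 and 16 of the spleen-labelled library, with 95% Poisson intervals. Over all groups Apoc1 is 1028 CPM in cluster 16 and 26.4 CPM in cluster 4, whereas Apoe is 13851 and 13029 CPM.

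In the liver-labelled library the macrophage-like class was cluster 14, led by C1qa, Vcam1, Cd5l, Spic and Hmox1, among them genes of red pulp macrophages, which recycle iron from red cells. It had 63, 57 and 64 cells with medians of 1602, 2846 and 866 UMIs, so the high dose cells were the shallowest. Apoe stood at 5059, 4588 and 6371 CPM, with ratios of −0.14 at the low and 0.33 (0.20 to 0.46) at the high dose. Cells with at least 20 Apoe UMIs were nonetheless 23 of 63, 15 of 57 and 6 of 64, the top 5 held 66.7% of the high dose UMIs, and as a mean over cells the high dose ratio was −0.24.

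The other members had few UMIs in cluster 14. Abca1 had 24, 21 and 2 UMIs, or 101, 102 and 15.1 CPM (high dose −2.74, −5.86 to −0.73), and Apoc1 had 18, 7 and 4 UMIs, or 75.5, 33.9 and 30.2 CPM. Abcg1 stood at 134, 209 and 75.4 CPM, Lpl at 96.4, 92.1 and 67.9 CPM, and Plin2 at 193, 150 and 158 CPM, and the high dose intervals of all 3 ratios included 0. At this depth 14.5% of genes were at least 2-fold lower and 7.24% at least 2-fold higher, beside 2 lower (Abca1 and Apoc1) and 0 higher of the 6 members.

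B cell-like cells of the liver-labelled library held Apoe above the T cell background. Their 483, 550 and 446 cells gave 757, 1024 and 580 CPM, and 59.6%, 57.5% and 50.2% of them held a UMI (25.9%, 30.7% and 20.4% after thinning), at medians of 3577, 3026 and 3458 UMIs. The low dose value moved with cluster 18, led by Pmepa1 and Scd1, where Apoe was 2382 CPM at the low dose and which held 2, 149 and 1 cells of the 3 groups. Abca1 stood at 70.8, 85.0 and 63.4 CPM and Abcg1 at 50.1, 52.7 and 52.2 CPM, a span of less than 1.5-fold for each. Plin2 was low, between 8.22 and 16.02 CPM. The 31, 34 and 66 B cell-like cells of the spleen-labelled library gave 547, 365 and 947 CPM of Apoe.

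Endothelial cell-like cells of the spleen-labelled library (35, 105 and 108 cells) held Apoe at 1356, 3615 and 3626 CPM, and at 1324, 2471 and 1691 CPM without cells that held a C1q UMI. Those cells were 14.3%, 20.95% and 31.5% of the class, and the macrophage list summed to 1114, 2405 and 2302 CPM in it. T cell-like cells (44, 104 and 170 cells) gave 508, 1472 and 863 CPM there, and 38.6%, 27.9% and 35.9% held a UMI (9.09%, 6.73% and 9.41% after thinning). Without C1q cells their Apoe stood at 557, 64.4 and 48.2 CPM, so the vehicle was then the highest, with 92 of its 110 remaining Apoe UMIs in 1 cell. Neutrophil-like shares of that library after thinning, 7.78%, 4.03% and 4.49%, were at or below these T cell shares. T cell-like cells of the liver-labelled library held Abcg1 at 38.2, 42.4 and 40.4 CPM.

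The wider lipid pathway was read from 59 further genes in 6 lists: liver X receptors with their partners and targets, sterol storage, lipoprotein uptake, lipid droplets, lipase partners and other apolipoproteins. The genes at least 2-fold lower and higher at the high dose were 7 and 2 of 35 measured in neutrophil-like cells of the liver-labelled library, and 4 and 6 of 39 in the spleen-labelled library. They were 5 and 2 of 35 and 8 and 2 of 34 in monocyte-like cells, and 9 and 1 of 23 and 2 and 4 of 44 in macrophage-like cells. Over all genes the shares lower and higher were 19.3% and 1.80%, 5.40% and 5.26%, 8.06% and 5.42%, 4.66% and 7.22%, 14.5% and 7.24%, and 3.16% and 8.08%, in the same order. The median log2 ratios of the list genes were −0.22 and 0.10 in neutrophil-like, −0.08 and −0.21 in monocyte-like and −0.61 and 0.14 in macrophage-like cells, where those of all genes were −0.40 and 0.03, −0.02 and 0.06, and −0.08 and 0.05.

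Nr1h3, the gene of liver X receptor alpha, was higher at the high dose in macrophage-like and monocyte-like cells of both libraries. In macrophage-like cells it went from 83.8 to 173 CPM (1.05, 0.12 to 1.99) in the liver-labelled library and from 96.5 to 222 CPM (1.20, 0.86 to 1.56) in the spleen-labelled library. The latter class held 6 vehicle and 39 high dose cells in cluster 16, against 57 and 83 in cluster 4. Nr1h3 is given for the whole class only, so makeup and level cannot be told apart. In monocyte-like cells it went from 12.3 to 30.4 CPM and from 5.41 to 15.5 CPM. Cyp27a1, which makes an oxysterol from cholesterol, was lower in monocyte-like cells, from 12.3 to 3.20 CPM and from 18.9 to 3.45 CPM, as was Lmf1, a factor for lipase maturation, from 7.83 to 3.20 CPM and from 13.5 to 5.17 CPM. The high dose values of Cyp27a1 and Lmf1, and the Nr1h3 values of spleen-labelled monocyte-like cells, rest on few UMIs. At the high dose 2 UMIs make 3.20 CPM in the liver-labelled and 5 UMIs make 8.62 CPM in the spleen-labelled library, where 1 vehicle UMI makes 1.35 CPM.

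Mylip, Arl4c, Pnpla2 and Hilpda were at least 2-fold lower in neutrophil-like cells of both libraries, whose vehicle and high dose cells differed in cluster makeup. Mylip, a liver X receptor target that degrades the LDL receptor, went from 10.7 to 2.28 CPM and from 6.45 to 0.856 CPM (2 high dose UMIs), and Arl4c, another such target, from 9.43 to 4.30 CPM and from 5.77 to 2.57 CPM. Pnpla2, the triglyceride lipase of lipid droplets, went from 127 to 23.3 CPM and from 69.6 to 23.5 CPM. Hilpda, which inhibits that lipase, went from 29 UMIs to 0, which allows up to 0.759 CPM, in the liver-labelled library and from 128 to 37.6 CPM in the spleen-labelled library. Over clusters with at least 20 cells of both groups, Pnpla2 was −0.44 and 0.07, Arl4c 0.56 and −0.41, Mylip −0.86 and −2.73 in the liver-labelled and spleen-labelled libraries, and Hilpda was 0.39 in the latter. Except for Pnpla2 in the liver-labelled library (−0.83 to −0.06), the intervals of these ratios included 0. The Mylip ratio of −2.73 (−8.23 to 0.23) came from 1 high dose and 7 vehicle UMIs. In macrophage-like cells of the spleen-labelled library Pltp, a phospholipid transfer protein gene and liver X receptor target, went from 136 to 326 CPM, while Cd36 and Fabp4, of fatty acid uptake and binding, were lower by 1.35 and 1.19 on the log2 scale. These values are over the whole class, whose vehicle and high dose cells differed in cluster makeup.

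The genes whose levels were most like those of each member were found over 36 units of class, group and library with at least 50 cells, as Pearson's r of log2(CPM + 10) among 11001 genes. The units share libraries and differ in depth, so r is a description. For Apoe they were Lgmn (0.94), Gngt2 (0.88) and Ctss (0.88), for Apoc1 Tgm2 (0.83), Rxra (0.82) and Trf (0.81), and for Lpl Timd4 (0.97), Abcc3 (0.95) and Nr1h3 (0.95). For Abca1 they were Rasgef1b (0.90), Ralgds (0.87) and Tmcc3 (0.86), for Abcg1 Hs6st1 (0.92), Nhlrc3 (0.88) and P2rx4 (0.88), and for Plin2 Fcgr3 (0.93), Lst1 (0.92) and Tlr13 (0.91). Abca1 and Abcg1 had an r of 0.84 with each other.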

How the data were processed

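The authors deposited filtered 10x matrices of UMI counts for genes and hashtags, not normalized and with no cell types. The submitters' processing notes name Cell Ranger 6.0.0, Seurat and mm10, and the matrix header names Cell Ranger 5.0.0. The methods state a later version. Counts are raw, so depth differs between groups and levels were scaled to a common total.

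Each library was processed alone. Hashtags were called with HTODemux (Seurat 5.3.0, quantile 0.99) and barcodes with 1 hashtag kept, so doublets between hashtags were removed. SCTransform (sctransform 0.4.2, R 4.3.3), 30 principal components and graph clusters (resolution 0.8) followed, with the 65 members and list genes left out of the 3000 variable features, which left 2976 and 2962. A class name needed at least 3 of its markers raised by a log2 fold of 1, each in 20% of the cluster's cells or more, and no excess of listed markers of another class among the 10 genes that led the cluster. Markers held at less than 1.5 times the share of the other cells were not read. These naming thresholds were set after seeing the data. For doublets inside a hashtag, Scrublet (scanpy 1.11.5) marked 234 of 9591 barcodes (2.44%) in the liver-labelled library and 0 of 4830 in the spleen-labelled library, where the caller did not work.

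UMIs of a class and group were summed and scaled to 1000000 (CPM), with exact Poisson intervals. Ratios carry exact conditional binomial and shares exact Clopper-Pearson intervals, all at 95%, and a class without a UMI was given 3 counts as its upper limit. A gene was measured with at least 10 UMIs over both groups and past the line at 2-fold. Shares were also computed after thinning each cell to 500 UMIs with a fixed seed. Hashtag groups were 1 pooled sample per library, so no test was possible. The members, lists and comparisons were chosen with earlier results of these data known. The text names all members, the list genes past 2-fold the same way in both libraries or with high levels, and the 3 genes most like each member. Pltp, Cd36, Fabp4, Apoa2 and Apoc3 were named after their values were seen. Python 3.11.15, numpy 2.4.6, scipy 1.17.1, pandas 2.3.3 and matplotlib 3.10.9 were used, and ratios and intervals were tested on simulated data. Alternatives were MULTIseqDemux, the dominant hashtag, resolutions 0.4 and 1.6, log-normalization, all variable features, a marker gate, a cell filter (200 genes or more, mitochondrial UMIs below 10%), Scrublet, cells without C1q or hepatocyte UMIs, a mean over cells, and CPM without the 20 most abundant genes. Clusters with at least 20 cells of both groups, neutrophil-like cells without cluster 12 of the spleen-labelled library, the C1q and hepatocyte cuts in monocyte-like cells, and a list of 9 hepatocyte genes were alternatives chosen after seeing the data.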

Additional observations from a re-analysis of the deposited data

Results flagged for a closer look

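Apoc1 reached 206 CPM (964 UMIs) in the 1627 barcodes of the spleen-labelled library that had no hashtag call, above the 42.1 CPM of its vehicle cells. These barcodes entered no comparison and had a median of 1803 UMIs.

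The high dose ratio of Apoe in neutrophil-like cells was −4.72 in the liver-labelled library and 1.25 in the spleen-labelled library, and the difference was not tested. Without cells that held C1q UMIs the ratios were −4.76 and −1.53. In macrophage-like cells the Apoe ratios were 0.33 and −0.06, also with no test of the difference.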

How the results depend on the processing

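No paired analysis was possible because each hashtag group was 1 pooled sample per library and no comparison had a test. For the same reason no sample was left out and no spread between samples is known. Precision is limited by counts such as the 2 Abca1 UMIs of high dose macrophage-like cells in the liver-labelled library and by 26 high dose monocyte-like cells there. Removal of Scrublet doublets was not run for the spleen-labelled library.

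In the liver-labelled library, high dose over vehicle in neutrophil-like cells was −5.92 (Apoe) and −2.13 (Abca1) as a mean over cells, −2.14 for Abca1 without cells with hepatocyte UMIs, and −2.82 (Apoe), −1.50 (Abcg1) and 0.71 (Abca1, reversed) in clusters with at least 20 cells of both groups. In the spleen-labelled library, that last setting gave 0.99 (Apoe), −0.15 (Abcg1), 0.97 (Abca1, reversed) and 0.0038 (Plin2, reversed). Apoe there was 1.72 with MULTIseqDemux, 0.84 by the dominant hashtag, 1.73 after the cell filter, 1.75 without cells with UMIs of the 9 hepatocyte genes, 0.76 without cluster 12 and 0.52 as a mean over cells, and it reversed to −0.60 with log-normalization, −1.52 with the marker gate, −1.53 without C1q cells and −0.21 without hepatocyte UMIs. Abca1 there was −2.37 with the marker gate, −3.60 without hepatocyte UMIs and −2.17 as a mean over cells, which gave −3.42 for Abcg1.

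Other reversals were as follows. Without hepatocyte UMIs, monocyte-like cells of the liver-labelled library gave 0.49 (Apoc1, high dose) and 0.21 (Apoe, low dose), those of the spleen-labelled library −0.53 (Abcg1, high dose) and 0.49 (Apoe, low dose), and neutrophil-like cells there 0.13 (Apoe, low dose). That cut left 7 high dose monocyte-like cells in the liver-labelled and 8 in the spleen-labelled library. Plin2 in monocyte-like cells of the spleen-labelled library was 0.041 with MULTIseqDemux and 0.043 with the marker gate. Apoe in macrophage-like cells of the liver-labelled library was −0.24 at the high dose as a mean over cells and 0.17 at the low dose with the marker gate, and in the spleen-labelled library, at the high dose, 0.023 with MULTIseqDemux, 0.073 by the dominant hashtag, 0.18 at resolution 0.4 and 0.029 at resolution 1.6. With at least 50 UMIs required, the list genes past 2-fold in neutrophil-like cells were 4 lower (7 at 10 UMIs) in the liver-labelled library, and 2 lower (4) and 3 higher (6) in the spleen-labelled library. Beyond what the settings themselves change, the causes were not tested.

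The high dose ratio of Apoe in monocyte-like cells was negative under each alternative that gave a value, between −2.42 and −1.74 in the liver-labelled library and between −2.55 and −0.27 in the spleen-labelled library. At resolution 0.4 the latter library had 0 monocyte-like cells and gave none, and its macrophage-like cells were 133, 189 and 161.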
